A study of Homo sapiens with 6 samples.

Results

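Nucleolar ribosome biogenesis factors are the proteins that transcribe ribosomal RNA, modify and cut it, and assemble it with ribosomal proteins. A set of 51 of them, taken by gene symbol from a list of RNA polymerase I components, small nucleolar particle proteins and subunit assembly factors, was read from the authors' deposited table of 26364 genes. All 51 are in the table, and all 51 are among its 12061 genes with an adjusted p, here called tested genes. The cells were REH, an established human leukaemia line with the features of B-cell precursors. Lentivirus brought in a hairpin that targets STAT3, a transcription factor of cytokine signalling, in 3 libraries (shSTAT3) and a scramble hairpin in 3. Selection of both groups took 3 days of puromycin, dead cells were then removed, and the replicates are independent experiments. All 6 libraries are of the same cell line. The comparison asks which transcripts differ when STAT3 is reduced in these cells.

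Ribosome production starts in the nucleolus, where RNA polymerase I transcribes one long precursor from the ribosomal DNA repeats. Small nucleolar particles then guide chemical modification of that RNA: box C/D particles methylate riboses and box H/ACA particles make pseudouridine. Assembly factors, largely separate for each subunit, fold and cut the precursor and are released before the subunits leave the nucleus. Dividing leukaemia cells make ribosomes at a high rate, and MYC is a well-known activator of many of these genes.

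The table gives no value per library, so each gene is described by a mean normalized count over all 6 libraries and a shrunken log2 fold change of shSTAT3 over scramble. A gene is said to rise or fall where the authors' DESeq2 adjusted p is under 0.05. Group levels quoted below are those that the mean and the fold change imply, and 95% intervals come from the fold change and its p-value. STAT3 itself was at 29.8% of scramble in the authors' deposited table (adjusted p = 7.78e-74). The table names no numerator, so this fall sets the direction of all fold changes and is no separate check of the labels. The means add up to 11485068 normalized counts for an average library. Of 11 B-cell precursor markers 10 were tested, with means up to 20516 in the authors' deposited table, and VPREB1 is listed at 0. Markers of T cells and erythroid cells had means of at most 1.41 there, while MPO of myeloid cells stood at 2330 and PDGFRB of fibroblasts at 806. The 13 markers of other cells had a summed mean of 3711, against 85432 for the B-cell precursor markers, CD3D and COL1A2 are listed at 0, and of 5 tested 1 rose and 3 fell; their part in the results was not tested. Fewer cells of a kind and less RNA per cell cannot be told apart in such libraries. A fold change without a p-value, which DESeq2 gives for a gene with an extreme count in a library, was found for 74 genes, 64 of them negative, and for 0 of the 51 factors.

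The 51 factors did not move as a block. By the authors' deposited table, a total of 17 rose and 11 fell, together 54.9% of the set, against 44.5% of all tested genes. The rising share was 33.3%, against 21.3% of tested genes, and the falling share was 21.6%, against 23.2%. Without the 13 factors that have annotated pseudogenes of their name, 16 rose and 5 fell, and the median log2 fold change was 0.18 in place of 0.10. Under a Bonferroni adjustment 5 rose and 6 fell, with no count over all tested genes to set beside them. Well-measured genes pass the test more often: of the 9290 tested genes with a mean inside the factors' range of 115 to 13646, 49.2% were called, 23.2% higher and 26.1% lower. The members' shares are a description of this list, and their difference from those of other genes was not tested. Changes were small. Only 6 factors passed the test with at least a 1.5-fold change, 11.8% of the set against 17.3% of all tested genes: NIP7, POLR1A and NOP16 rose, and TCOF1, NCL and PA2G4 fell. The median log2 fold change was 0.10, against 0.0027 over all tested genes. Standard errors of the 51 log2 fold changes ranged from 0.060 to 0.20, with a median of 0.099.

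Counts by class were uneven. Large subunit assembly factors rose in 9 of 19 cases and fell in 2, with a median log2 fold change of 0.25. As a mean the class stood at 0.16, and the implied counts of its 19 genes summed to 98.7% of scramble. Abundant multifunctional nucleolar proteins fell in 3 of 4 cases with none rising, at a median of −0.31. RNA polymerase I components split, 3 of 7 higher and 1 lower (median 0.07). Small subunit factors were even, 3 of 13 higher and 3 lower (median 0.10). Of the box C/D proteins 2 of 4 rose and 1 fell (median 0.15), and of the box H/ACA proteins 1 of 4 fell and none rose (median 0.13). With 4 to 19 genes a class these are counts of named genes, and no class was tested against another. The classes, the multifunctional one included, were chosen with earlier results of these data known. The box C/D median was −0.030 with RRP9 counted as a small subunit factor, 0.33 without NOP56 and 0.036 as a mean, and that of RNA polymerase I was 0.23 without RRN3.

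**Figure D1:**
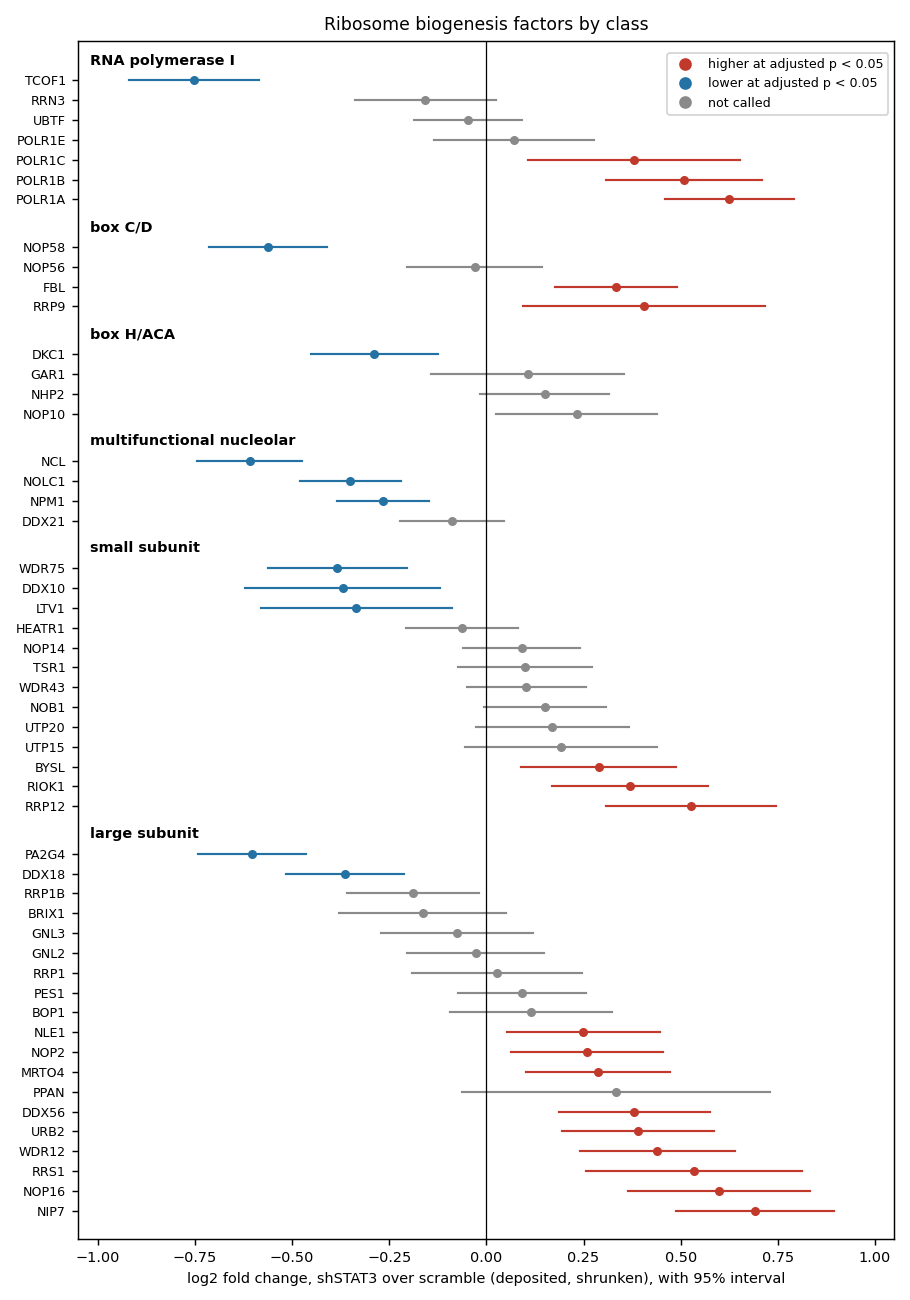
Log2 fold change of shSTAT3 over scramble on the horizontal axis for each of the 51 factors, grouped by class, with the 95% interval implied by the authors' p-value as a bar. Red points rose and blue points fell at an adjusted p under 0.05; the 9 red points of the large subunit class stand beside 2 blue ones, and no multifunctional nucleolar protein lies above 0.

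**Figure D2:**
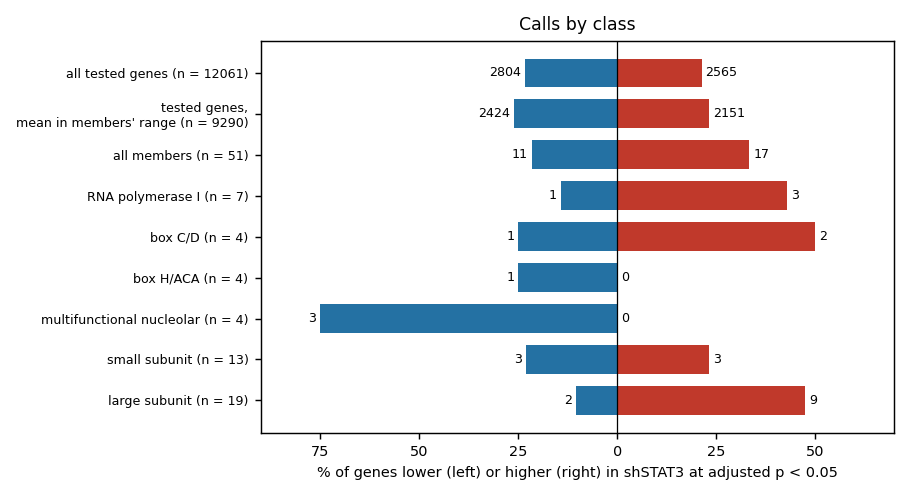
Share of genes called lower (blue, left) or higher (red, right) in shSTAT3 in each class, under the same shares of all 12061 tested genes and of the 9290 whose mean lies in the factors' range; the numbers at the bars are gene counts. Large subunit factors have 47.4% higher and 10.5% lower, and multifunctional nucleolar proteins have 0% higher and 75% lower. Classes were chosen with earlier results of these data known.

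Promoter sequence was looked at because many factors of this pathway carry the E-box CACGTG, the site that MYC with MAX binds, next to their start. RefSeq promoter windows (GRCh38.p14), each from 250 bases before to 50 bases after a transcription start, were matched for 41 of the 51 factors. BOP1, DDX18, NOLC1, NOP58, POLR1E, RRP12, RRP1B, RRS1, TCOF1 and URB2 had none. CACGTG, which reads the same on both strands, was present for 16 of the 41 (39.0%). It was present for 12.7% of the 9059 tested genes with a window, for 13.4% of those with a mean in the factors' range and in 7.26% of all 35116 windows. The windows' median GC content was 63.7% for the factors and 65.0% for the tested genes. Shown here for 10 of them is the stretch from 50 bases before to 50 bases after the start, on the gene's own strand, with the E-box in capitals. FBL, RRP9, NLE1, MRTO4 and BYSL rose and hold one, LTV1 fell and holds one, NCL and PA2G4 fell without one in this stretch, and NIP7 and POLR1A rose without one. The 10 are examples with no uncalled factor among them, and they do not give the shares of the 41.
FBL (chr19:39846330-39846429, minus strand): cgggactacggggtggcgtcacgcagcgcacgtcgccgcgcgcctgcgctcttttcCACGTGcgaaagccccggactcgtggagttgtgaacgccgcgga
RRP9 (chr3:51941855-51941954, minus strand): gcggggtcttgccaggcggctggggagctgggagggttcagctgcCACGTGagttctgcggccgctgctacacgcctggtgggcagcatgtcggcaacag
NLE1 (chr17:35142254-35142353, minus strand): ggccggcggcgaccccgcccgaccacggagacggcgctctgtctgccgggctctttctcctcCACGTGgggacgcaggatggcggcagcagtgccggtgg
MRTO4 (chr1:19251755-19251854, plus strand): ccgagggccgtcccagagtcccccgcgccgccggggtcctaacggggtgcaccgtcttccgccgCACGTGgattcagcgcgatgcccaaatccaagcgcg
BYSL (chr6:41921449-41921548, plus strand): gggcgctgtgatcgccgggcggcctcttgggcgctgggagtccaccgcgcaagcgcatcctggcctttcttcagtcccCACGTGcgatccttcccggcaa
LTV1 (chr6:143843288-143843387, plus strand): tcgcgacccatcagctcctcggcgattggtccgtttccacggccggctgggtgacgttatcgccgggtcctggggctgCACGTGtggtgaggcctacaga
NCL (chr2:231464435-231464534, minus strand): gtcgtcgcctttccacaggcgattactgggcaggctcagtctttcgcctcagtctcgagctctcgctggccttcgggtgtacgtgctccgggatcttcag
PA2G4 (chr12:56104509-56104608, plus strand): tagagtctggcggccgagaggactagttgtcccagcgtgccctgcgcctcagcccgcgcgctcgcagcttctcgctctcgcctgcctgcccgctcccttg
NIP7 (chr16:69339722-69339821, plus strand): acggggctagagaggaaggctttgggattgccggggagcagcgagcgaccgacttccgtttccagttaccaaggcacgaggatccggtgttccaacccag
POLR1A (chr2:86105837-86105936, minus strand): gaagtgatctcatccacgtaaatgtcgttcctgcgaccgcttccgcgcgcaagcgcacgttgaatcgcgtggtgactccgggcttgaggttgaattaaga

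The E-boxes of the factors lay mostly near the start; the difference from other genes was not tested. Of the 17 E-boxes of the 16 factors, 12 (70.6%) begin downstream of the start, between bases 4 and 36 of the transcript. Among the 1395 E-boxes of tested genes 9.68% do. Within 50 bases of the start on either side lie 94.1% of the factors' E-boxes and 38.0% of those of tested genes. The exception is NOP10, which has 2 E-boxes, the farther one beginning at base −170 relative to the start. By direction, the E-box was present for 6 of 14 factors that rose, 1 of 7 that fell and 9 of 20 that passed neither way. The shares among all tested genes were 14.7%, 10.3% and 12.9%. FBL, RRP9, NLE1, MRTO4, BYSL and NOP2 are the 6 that rose, and LTV1 is the 1 that fell. By class, it was present for 2 of 3 box C/D, 2 of 4 box H/ACA, 6 of 14 large subunit, 5 of 12 small subunit and 1 of 3 multifunctional genes. No RNA polymerase I component had the motif, with 5 of 7 matched. MYC fell slightly, with a log2 fold change of −0.28 (95% interval −0.50 to −0.06, adjusted p = 0.0329) in the authors' deposited table. MAX, its partner, stood at 72.0% of scramble there (adjusted p = 2.89e-07). A match of letters is not a measured site, and a window without a match says only that these letters are not in it.

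**Figure D3:**
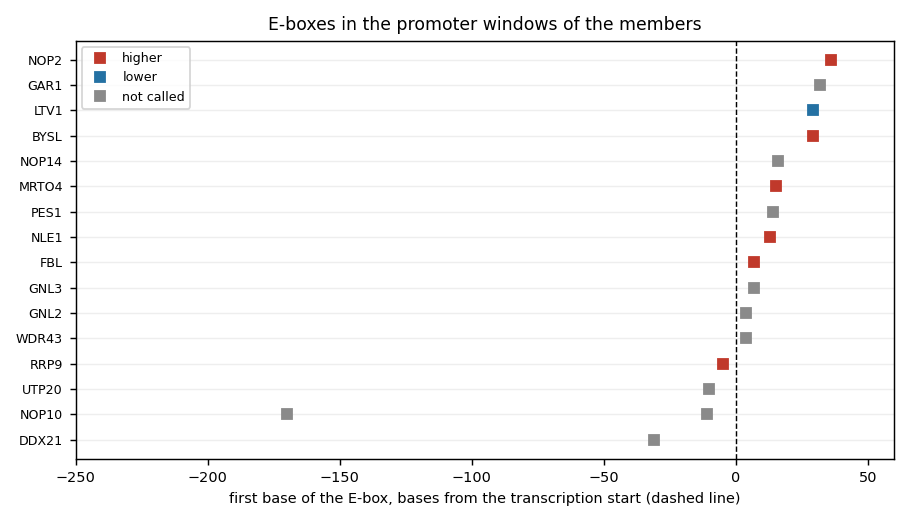
First base of each CACGTG in the promoter windows, in bases from the transcription start (dashed line), for the 16 factors that have one; red rose, blue fell, grey was not called. All but 1 of the 17 motifs lie between 31 bases upstream and 36 bases downstream.

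Of the RNA polymerase I components in the set, 3 of 4 subunits rose and the cofactor gene TCOF1 fell. Of the other subunits, given with the wider pathway, POLR1D and TWISTNB fell, and CD3EAP and ZNRD1 were not called. POLR1A, the largest catalytic subunit (chromosome 2 from 86020216 to 86106155, GRCh38, GENCODE 29), went from an implied 1429 to 2204 normalized counts. Its log2 fold change in the authors' deposited table is 0.63 (95% interval 0.46 to 0.79, adjusted p = 3.79e-12). POLR1B, the second catalytic subunit, rose 1.42-fold, from an implied 935 to 1330.2 normalized counts (adjusted p = 4.58e-06 in the authors' deposited table). POLR1C, which RNA polymerase III shares, rose 1.30-fold, from an implied 257 to 335 (adjusted p = 0.0174 in the authors' deposited table). The subunit POLR1E did not pass, at 0.07 with an interval from −0.13 to 0.28. The implied counts of these 4 subunits added up to 140% of scramble. Over all 7 RNA polymerase I components of the set the sum was 99.0%. Over the 16 RNA polymerase I genes of the set and the wider pathway list it was 96.9%.

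TCOF1 went the other way and had the lowest fold change of all 51. It encodes treacle, which binds ribosomal DNA chromatin and RNA polymerase I and is mutated in Treacher Collins syndrome. On chromosome 5 from 150357629 to 150400308, it fell to 59.4% of scramble, from an implied 2846 to 1689 normalized counts (adjusted p = 4.72e-17 in the authors' deposited table). The initiation factors UBTF and RRN3 were not called. UBTF, which coats active ribosomal DNA, was at −0.05 (interval −0.19 to 0.09), and RRN3, which brings the polymerase to the promoter, at −0.16 (−0.34 to 0.02) in the authors' deposited table. RRN3 has 3 annotated pseudogenes, so its count depends on how shared reads were assigned.

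The multifunctional proteins include the most abundant members, and all 4 had fold changes below 0. NCL, nucleolin, binds precursor RNA and chromatin (chromosome 2 from 231453531 to 231483641). It fell to 65.6% of scramble, from an implied 16486 to 10807 normalized counts (log2 fold change −0.61, interval −0.74 to −0.47, adjusted p = 3e-17 in the authors' deposited table). NOLC1, also called NOPP140, is a chaperone of small nucleolar particles related to treacle. It fell to 78.5%, from an implied 4657 to 3654 normalized counts (adjusted p = 8.95e-07 in the authors' deposited table). NPM1, nucleophosmin, which is frequently mutated in acute myeloid leukaemia, fell to 83.2%, from an implied 11606 to 9651 normalized counts (log2 interval −0.38 to −0.15, adjusted p = 5.45e-05 in the authors' deposited table). GENCODE 29 lists 45 pseudogenes named after NPM1, and 2 named after NCL, so both counts are uncertain where reads match several copies. DDX21, a helicase of ribosomal RNA transcription and processing, was at −0.09 and did not pass (adjusted p = 0.296 in the authors' deposited table). The implied counts of these 4 genes summed to 75.9% of scramble. Over all 51 factors the sum was 90.4%, and over the 47 others it was 100.2%. With only NCL and NPM1 left out it was 98.2%, so the lower total is mostly that of these 2 genes.

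Box C/D particles have a shared protein core, and its genes did not move together. FBL, fibrillarin, the methyltransferase, rose 1.26-fold, from an implied 2249 to 2833 normalized counts (adjusted p = 0.000162 in the authors' deposited table). NOP58, one of a pair of related scaffold proteins, fell to 67.7% of scramble, from an implied 1940.1 to 1313 (log2 interval −0.71 to −0.41, adjusted p = 6.41e-12 in the authors' deposited table). Its partner NOP56 stood at −0.03 (interval −0.20 to 0.14). These intervals of NOP58 and NOP56 do not overlap, nor do those of NOP58 and FBL. The core gene NHP2L1, which is not in the set but in the wider pathway list, rose 1.21-fold (adjusted p = 0.00104 in the authors' deposited table). RRP9, the protein specific to the U3 particle, rose 1.32-fold (adjusted p = 0.0265 in the authors' deposited table).

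Of the H/ACA core, DKC1 alone passed. It encodes dyskerin, the pseudouridine synthase mutated in X-linked dyskeratosis congenita and also a part of telomerase, and fell to 81.9% of scramble, from an implied 1857 to 1520.3 normalized counts (adjusted p = 0.00193 in the authors' deposited table). The RNA-binding partner NHP2 was at 0.15 (interval −0.02 to 0.32) and GAR1 at 0.11 (−0.14 to 0.36). NOP10, the smallest core protein, was at 0.23 with an interval of 0.02 to 0.44 and lay just outside the threshold (adjusted p = 0.0610 in the authors' deposited table). Of the box C/D core genes, then, FBL rose and NOP58 fell, while in the H/ACA core DKC1 fell and no gene rose.

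Of the 13 small subunit factors 6 were called, 46.2%, near the 44.5% of all tested genes. RRP12, which acts in late maturation and export, rose 1.44-fold (adjusted p = 1.44e-05 in the authors' deposited table). RIOK1, an atypical kinase of the last maturation steps, rose 1.29-fold (adjusted p = 0.00117 in the authors' deposited table). BYSL, bystin, rose 1.22-fold (adjusted p = 0.0126 in the authors' deposited table). WDR75 of the t-UTP group, which ties RNA polymerase I transcription to processing, fell to 76.7% (adjusted p = 0.000125 in the authors' deposited table). The other t-UTP genes, WDR43, UTP15 and HEATR1, did not pass, at 0.10, 0.19 and −0.06. The authors' deposited table also puts DDX10, a helicase of early processing, at 77.4% and LTV1, a late assembly factor, at 79.3% (adjusted p = 0.0113 and 0.0197). The remaining 4, NOP14, UTP20, TSR1 and the endonuclease gene NOB1, had log2 fold changes from 0.09 to 0.17, none of which passed. Late factors thus rose (RRP12, RIOK1, BYSL), fell (LTV1) or were not called (NOB1, TSR1).

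Large subunit factors held most of the rises. NIP7, a factor of early large subunit maturation (chromosome 16 from 69337996 to 69343111), had the highest fold change of the 51. It rose 1.61-fold, from an implied 465 to 750 normalized counts (log2 interval 0.49 to 0.90, adjusted p = 4.66e-10 in the authors' deposited table). NOP16, a nucleolar protein induced by MYC, rose 1.51-fold, from an implied 426 to 645 normalized counts (adjusted p = 3.87e-06 in the authors' deposited table). RRS1, which helps to bring the 5S particle into the large subunit, rose 1.45-fold, from an implied 235 to 340.4 (adjusted p = 0.000718 in the authors' deposited table). BRIX1, another large subunit factor, was at −0.16 (interval −0.38 to 0.05). WDR12 rose 1.36-fold (adjusted p = 7.71e-05 in the authors' deposited table). It forms the PeBoW complex with PES1 and BOP1, which stood at 0.09 and 0.11 without passing.

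A further 5 large subunit genes rose. URB2 and the helicase gene DDX56 had folds of 1.31 and 1.30 by the authors' deposited table (adjusted p = 0.000404 and 0.000486). MRTO4 encodes the placeholder for the stalk protein P0 and NOP2 a methyltransferase of large subunit RNA. They rose, at log2 fold changes of 0.29 and 0.26 (adjusted p = 0.00725 and 0.0244 in the authors' deposited table). NLE1, a substrate of the remodelling ATPase midasin, rose 1.19-fold and was the last to pass (adjusted p = 0.0315 in the authors' deposited table). PA2G4, also called EBP1, a late large subunit factor and growth regulator, fell to 65.8% of scramble, from an implied 4452 to 2930 normalized counts (adjusted p = 3.48e-16 in the authors' deposited table). DDX18, another helicase, fell to 77.7% (adjusted p = 1.86e-05 in the authors' deposited table). PA2G4 and DDX18 each have 5 annotated pseudogenes, and NIP7 has 3.

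Paralogous members were compared by their intervals. RRP1B was at −0.19 (interval −0.36 to −0.02, adjusted p = 0.0632 in the authors' deposited table), just outside the threshold, and RRP1 at 0.03 (−0.19 to 0.25). These intervals overlap. The GTPase genes GNL2 and GNL3 (nucleostemin) did not pass, at −0.03 and −0.08. PPAN, with the lowest mean of the set (115), was at 0.33 with a wide interval of −0.06 to 0.73, and it shares exons with a readthrough transcript. Of the 4 helicase genes in the set DDX56 rose, DDX18 and DDX10 fell and DDX21 was not called.

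Level and direction went together within the set. On the scale of mean normalized count per kb of exon, the 10 highest factors were NPM1, NCL, FBL, NOLC1, PA2G4, NOP10, DDX21, NHP2, NOB1 and NOP56. Their means ran up to 2776 per kb for NPM1 and 1969 for NCL, and the median over all 51 was 215, against 85.0 over tested genes. Of the 10, 4 fell and FBL rose. Of the 41 others, 7 fell and 16 rose. Of the 664 tested genes with a mean per kb at least as high as that of the lowest of the 10, 27.4% fell and 33.0% rose. Across the 51 factors the Spearman correlation of mean per kb and log2 fold change was −0.40, and without the 4 multifunctional proteins it was −0.32. Over 11401 tested genes with a length it was 0.0056. The genes share the same 6 libraries and are not independent, so no p is given. GC content also moved with the change, at a Spearman correlation of 0.41 over the factors and 0.18 over all tested genes. Removing a linear fit on mean, exon length and GC content over tested genes left class medians of 0.23 for the large subunit and −0.23 for the multifunctional proteins. The fit was not made on the factors alone, so the stronger relation to level and GC content within the set may remain.

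**Figure D4:**
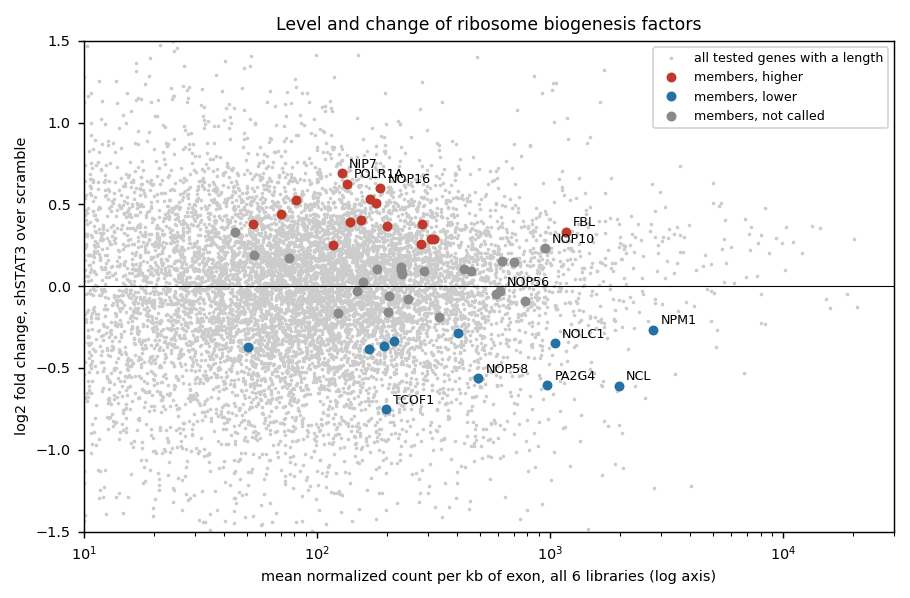
Mean normalized count per kb of exon over all 6 libraries (log axis) against the log2 fold change of shSTAT3 over scramble; grey dots are tested genes, coloured points the 51 factors. Among the 10 highest factors FBL is the 1 that rose and NPM1, NCL, NOLC1 and PA2G4 fell; TCOF1 and NOP58 fell at lower levels. Genes beyond the axis limits are not shown.

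Small nucleolar RNA genes lie inside 9 of the factors on the same strand in GENCODE 29: POLR1C, NOP56, NOP58, DKC1, NCL, WDR43, TSR1, GNL3 and PPAN. Of these hosts 3 fell (NCL, NOP58, DKC1) and 1 rose (POLR1C). Of the 42 factors without one, 8 fell and 16 rose. Among all tested genes 23.2% fell and 21.3% rose. The hosts' median of mean normalized counts was 1627, against 850 for the 42 others. The difference in calls between hosts and the other factors was not tested.

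The rest of the pathway was read from a list of 111 other ribosome biogenesis genes, all tested. By the authors' deposited table, as many rose as fell, 28 each or 50.5% in all, with a median log2 fold change of −0.02. That share is near the 49.2% of tested genes with a mean in the factors' range and the 44.5% of all tested genes. Other large subunit factors moved both ways, 14 higher and 14 lower of 41 (median −0.06), unlike the 9 and 2 of 19 members; this difference was not tested. Together the 60 large subunit genes gave 23 higher and 16 lower. Other small subunit factors gave 9 higher and 3 lower of 39 (median 0.05). Of 9 other small nucleolar particle factors 3 rose and 3 fell.

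MDN1, which encodes midasin, the giant ATPase that strips assembly factors from the large subunit, had the smallest adjusted p among those that rose. It was 1.93-fold higher (interval 0.76 to 1.13 on the log2 scale, adjusted p = 2.5e-22 in the authors' deposited table). Its substrate gene NLE1 rose as well, as given above. URB1, whose product acts with URB2 in yeast, rose 1.37-fold, near the 1.31-fold of URB2. NOL6 of the small subunit processome rose 1.64-fold, the GTPase gene GNL3L 1.54-fold and LSG1, a GTPase of the last cytoplasmic step, 1.38-fold (adjusted p = 1.1e-11, 4.6e-11 and 5.54e-07 in the authors' deposited table). BMS1, the GTPase of the small subunit processome, fell furthest among them in that subunit, to 48.8% (adjusted p = 1.35e-26 in the authors' deposited table). RSL1D1 and GTPBP4, of the large subunit, fell to 65.3% and 64.2% (adjusted p = 4.08e-16 and 4.87e-13 in the authors' deposited table).

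The RNA exosome trims precursor ends. Its list of 13 genes holds the cofactors SKIV2L2, MPHOSPH6 and C1D beside the subunits. Of the 13, 5 fell (38.5%) and 1 rose (7.69%), with a median of −0.15. Those that fell were the subunits EXOSC8, EXOSC9 and EXOSC10 and the cofactors SKIV2L2 and MPHOSPH6, and the subunit EXOSC5 rose. Of all tested genes 23.2% fell and 21.3% rose, and the difference was not tested. EXOSC8 fell to 45.6% and SKIV2L2, the helicase now named MTREX, to 58.8% (adjusted p = 6.62e-14 and 8.91e-19 in the authors' deposited table). Among 9 other RNA polymerase I genes 3 fell and 1 rose (median −0.21). These are named because they are few, after their values were seen: the subunits POLR1D and TWISTNB and the terminator TTF1 fell to 74.1%, 71.8% and 77.6%, and TAF1C rose 1.40-fold. The subunits CD3EAP and ZNRD1 did not pass, at −0.35 and 0.19 (adjusted p = 0.0761 and 0.206 in the authors' deposited table). Subunits of the same polymerase thus moved in both directions, with POLR1A, POLR1B and POLR1C higher.

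**Figure D5:**
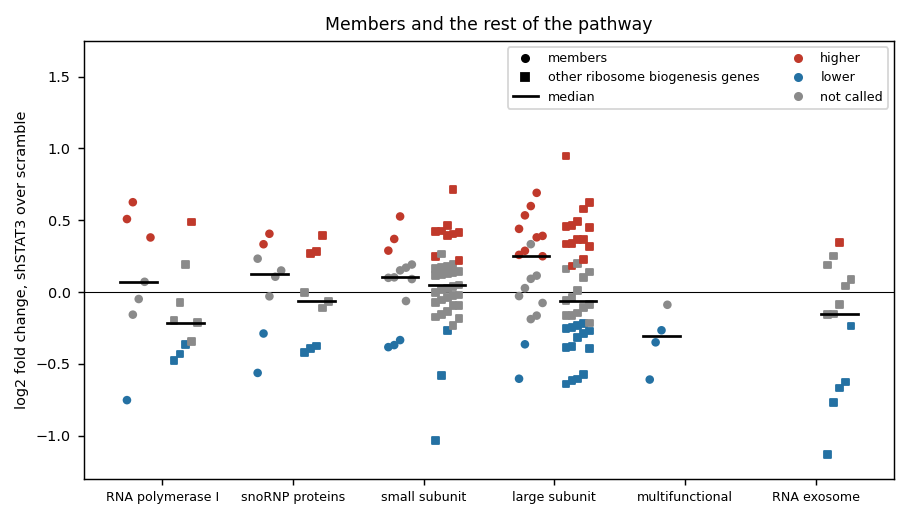
Log2 fold change of shSTAT3 over scramble for the 51 factors (circles) and 111 other ribosome biogenesis genes (squares) by class, with class medians as lines; red rose, blue fell, grey was not called. Members and others of the large subunit have medians of 0.25 and −0.06, and the genes of the exosome and its cofactors one of −0.15.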

How the data were processed

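TruSeq RNA v2 libraries of total RNA from 6 REH cultures were compared, 3 per group, per the labels' protocols. Build hg38 and the tools DESeq2, featureCounts, Picard, Bowtie2, Trimmomatic and bcl2fastq 2.19 come from the submitters' processing notes. Annotation, model formula and strand setting: not given in the sources used here. Reads of overlapping genes on opposite strands may therefore be shared. The deposited table holds a mean signal (counts divided by size factors and averaged by the authors). Its other columns are p-values, their adjusted form and log2 fold changes computed by the authors, per the file headers. The table does not name the numerator, so direction was read from STAT3. Fold changes are shrunken: the 1447 genes with a mean under 0.3 lie within 0.0698 of 0.

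No counts per library were at hand, so the planned edgeR fit was replaced by its planned fallback, the authors' DESeq2 adjusted p under 0.05 over all 12061 tested genes. Recomputing the Benjamini-Hochberg adjustment matched within 2.87e-07. Each standard error is the fold change over the normal quantile of its p-value. Group levels weight both groups equally. Lengths are merged exons in GENCODE 29, known for 94.5% of tested genes. Sequences are RefSeq's. The adjustment and the standard errors were tried on simulated fold changes, which did not test the authors' DESeq2 fit. Members, classes and lists were chosen with earlier results of these data known. Named genes are all members that passed, other members with their class or complex, the 5 smallest adjusted p-values in each direction of the wider pathway list, STAT3, MYC and MAX. POLR1D, TWISTNB, TTF1, TAF1C, CD3EAP, ZNRD1, NHP2L1, EXOSC5, EXOSC9, EXOSC10, MPHOSPH6 and C1D fall outside this rule and were named after their values were seen. Python 3.11.15, pandas 2.3.3 and scipy 1.17.1 were used.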

Additional observations from a re-analysis of the deposited data

How the results depend on the processing

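Counts of called factors stayed within 1.5 times of 28 at adjusted p thresholds of 0.01 (21) and 0.10 (30). Over all 12061 tested genes 4107 and 6099 were called at these thresholds. At a mean of at least 50 the count of factors was 28, with 5019 of 10441 genes called. It was also 28 with the adjustment taken over every gene with a p-value, where 5075 of 17701 genes were called. Requiring 1.5-fold left 6 factors and 2091 of 5369 genes. A Bonferroni adjustment, added after the data were seen, left 11 factors, 5 higher and 6 lower, and was not counted over all tested genes. The 56 calls among other ribosome biogenesis genes stayed within 1.5 times. Without the 13 factors that have pseudogenes of their name (also added later), 16 rose and 5 fell. Of 49 recomputed medians 40 moved by less than the median standard error. For RNA polymerase I the median was 0.23 without RRN3, the member with near copies. For box C/D it was −0.030 with RRP9 in its second class, 0.33 without NOP56 (under either pseudogene rule) and 0.036 as a mean, so the centre of these 4 genes moved with the choice of members. For the multifunctional class it was −0.40 with members in their second class (then TCOF1, PA2G4, RRP1B and GNL3). These genes are all outside the main class, so the −0.40 is no check of it. The median of the main class was −0.23 after the fit on mean, exon length and GC content, and −0.22 without NCL and NPM1. No paired analysis was possible because the table has no values per library. For the same reason the edgeR and DESeq2 fits and the fits that leave out a replicate were not run. A single library could therefore carry a result, and this could not be checked.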
